A study of Mus musculus with 4 samples.

Results

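Spink4-high goblet cells of the mouse mid-colon were defined here as the goblet cells in which transcripts of Spink4, Agr2 and Spdef outnumbered most those of Zg16, Clca1 and Tff3. Droplet barcodes were kept at 500 or more UMIs (unique molecular identifiers, each a counted transcript), 250 or more detected genes and at most 25% mitochondrial UMIs, with at least 1 UMI of the epithelial gene Epcam. A barcode was taken as a goblet cell where Muc2, Fcgbp, Clca1, Zg16, Tff3, Spink4 and Agr2 together held at least 2% of its UMIs. Members were selected on measured UMIs of these genes. For each goblet cell the ratio r was (Spink4 + Agr2 + Spdef + 1) / (Zg16 + Clca1 + Tff3 + 1) in raw UMIs, and cells at or above the median r over all 4 libraries were called Spink4-high. The rule found 1134 Spink4-high cells among 2268 goblet cells and 44356 kept cells, and the 1134 goblet cells below the median are called the other goblet cells.

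The cells came from mid-colon tissue of 7-week-old specific-pathogen-free mice. Control mice drank clean water and DSS mice drank 3% DSS (dextran sulfate sodium, a polysaccharide that injures the colonic epithelium) for 2 days, with 2 libraries in each group. The strain and sex are not stated in the labels, nor is it stated that the 2 libraries of a group came from separate animals, so the p-values speak to variation between these libraries, part of which could be technical. Transcripts were captured with a 10x Genomics 3-prime droplet kit.

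Goblet cells are secretory epithelial cells that make the mucus layer of the gut. Their main product is Muc2, a gel-forming mucin that is folded in the endoplasmic reticulum (ER), decorated with sugars in the Golgi and stored in granules. Spdef is an ETS transcription factor that promotes goblet cell maturation, Agr2 is an ER protein needed to produce Muc2, and Spink4 is a secreted member of the Kazal-type serine protease inhibitor family. On the other side of the ratio, Zg16 is a lectin-like mucus protein that binds Gram-positive bacteria, Clca1 is a mucus metalloprotease and Tff3 is a trefoil peptide that aids epithelial repair. Spink4 lies on chromosome 4 from 40920052 to 40931395, Agr2 on chromosome 12 from 35992907 to 36004087 and Spdef on chromosome 17 from 27714352 to 27728955 (GRCm38).

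The libraries held 101051573 to 109472082 UMIs each. The controls held 643 and 299 Spink4-high cells and the DSS libraries 32 and 160. Their summed UMIs were 13863721, 6873926, 766930 and 3636808 in the same order, so DSS 1 carried the shallowest sum and the fewest cells. Depth per cell was alike, with a median of 19760, 21390, 20102 and 19697.5 UMIs per Spink4-high cell. Pairs of libraries shared 28 to 41 kept barcode sequences, and none of these marked a Spink4-high cell in both libraries. Doublet prediction with Scrublet marked 29, 13, 0 and 7 of the Spink4-high cells, which were kept.

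Spink4-high cells made up a smaller share of goblet cells in both DSS libraries than in either control. They were 55.2% of the goblet cells of control 1 (exact Clopper-Pearson 95% interval 52.3 to 58.1) and 71.7% of those of control 2 (67.1 to 76.0). In DSS 1 the share was 9.25% (6.41 to 12.8) and in DSS 2 it was 47.1% (41.7 to 52.5). The intervals cover counting error only. The groups did not overlap, yet the DSS libraries lay farther from each other than DSS 2 lay from control 1. The mean was 63.4% ± 11.7 (SD, n = 2) in control and 28.2% ± 26.7 (SD, n = 2) in DSS, a difference of -35.3 percentage points with an exact two-sided permutation p of 0.33, the smallest that 2 against 2 libraries allow. Of all kept cells, the Spink4-high cells were 6.90% and 2.78% in the controls and 0.266% and 1.31% in the DSS libraries, again without overlap and again with p = 0.33 in the exact permutation test. Epithelial cells were themselves a smaller part of the DSS libraries, at 34.8% and 51.6% of kept cells against 69.8% and 74.5% in control. All goblet cells together were 17.9% and 5.2% of epithelial cells in control and 8.27% and 5.38% in DSS, which overlapped. A fall in the number of Spink4-high cells and a shift of cells across the ratio threshold cannot be told apart from these shares.

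**Figure D1:**
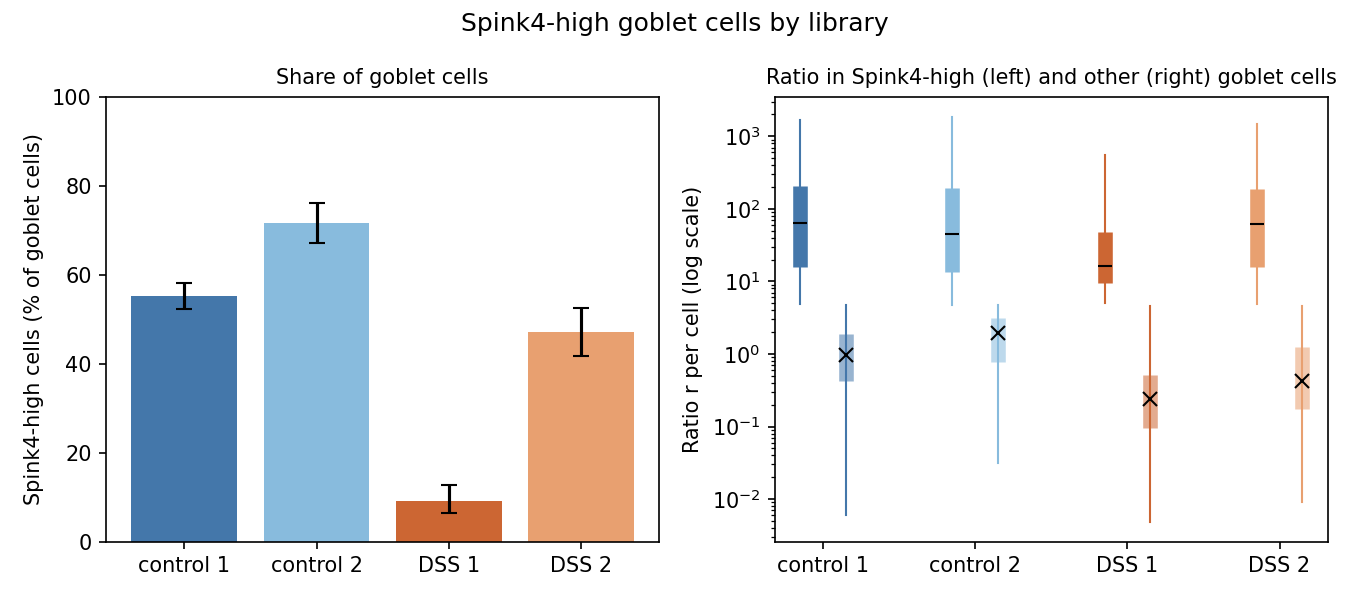
Left, Spink4-high cells as a percentage of goblet cells in each library, with exact 95% intervals for counting error. Right, the ratio r per cell on a log axis in Spink4-high cells (solid box, bar at the median) and the other goblet cells (pale box, cross at the median), where boxes span the quartiles and lines the full range: DSS 1 had the lowest share, 9.25%, and the lowest median r in both classes, 16.6 and 0.236.

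The ratio ran without a gap across the threshold. Its median was 4.79, with the lowest Spink4-high cell at 4.80 and the highest other goblet cell at 4.78, and its quartiles were 0.642 and 54.9. Within a factor of 2 of the threshold lay 181 Spink4-high cells and 178 other goblet cells. These bordering cells were nearly alike in several genes of the rule. Mean CPM over cells was 22563 inside and 20983 outside for Spink4, 251 and 275 for Zg16 and 422 and 432 for Tff3. Here CPM is UMIs per 1000000 UMIs of each cell, while class levels below use the UMIs of the summed cells. Agr2 was at 12274 CPM inside and 9474 CPM outside, and Clca1 differed most, at 4570 CPM inside and 8454 CPM outside. The median r of Spink4-high cells was 62.8 and 45 in the controls and 16.6 and 61.3 in DSS 1 and DSS 2, so the 32 cells of DSS 1 sat nearest to the threshold. Of the 1134 Spink4-high cells, 793 had no Zg16 UMI, 608 no Tff3 UMI and 266 no Clca1 UMI.

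The marker genes of the label took part in choosing the cells, so their levels are a description and no check of it. Spink4 stood at 23342, 25782, 14272 and 13426 CPM in Spink4-high cells, in the order control 1, control 2, DSS 1, DSS 2 used for all sets of 4 values, and at 16203, 20797, 8561 and 6466 CPM in the other goblet cells. Spink4 was thus abundant in both classes, and within a class it was lower in both DSS libraries than in either control. Agr2 stood at 15792, 12555, 11519 and 13328 CPM in the Spink4-high cells and at 9003, 7579, 7202 and 7664 CPM in the others. Muc2 differed least, at 25890, 26070, 19276 and 24573 CPM against 22894, 22029, 18648 and 14594 CPM. The classes parted most on the other side of the ratio, where Zg16 was at 28.8, 6.55, 170 and 405 CPM in the Spink4-high cells and at 5532, 492, 16990 and 24520 CPM in the others. Spink4-high is thus a name for cells low in Zg16, Clca1 and Tff3 as much as for cells high in Spink4.

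After each cell was thinned to 2000 UMIs, a Spink4 UMI was found in 100%, 99.7%, 100% and 98.7% of the Spink4-high cells, and a Muc2 UMI in 99.8%, 100%, 100% and 100%. Immune cells (Epcam at 0, at least 1 UMI of the leukocyte gene Ptprc) should lack these genes. Yet 43.5%, 58.6%, 7.28% and 5.38% of those with at least 2000 UMIs held a Spink4 UMI after the same thinning. The median depth of all immune cells was 2786.5, 1890.5, 4121 and 2810 UMIs, and 123, 425, 302 and 431 of them were left out as too shallow. For Spink4 this background share was higher in the control libraries. On the other side of the ratio, Clca1 was found in 24.2%, 10.1%, 24.5% and 2.52% of thinned immune cells and Zg16 in 9.37%, 1.64%, 12.9% and 8.82%. The part of background RNA in r, in the shares of Spink4-high cells and in the level of Spink4 was not tested. Spdef was found in 37.9%, 65.6%, 34.4% and 37.6% of thinned Spink4-high cells and in 0.604%, 4.11%, 0.297% and 0.252% of immune cells.

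Beyond the genes of the rule, Spink4-high cells held more RNA of a small set of genes in every library, and less of a few others. This contrast is the one the ratio divides, so its values carry no test. Among 2334 genes at 50 CPM or more in the higher class in all 4 libraries, 6 (0.257%) were at least 2-fold higher in Spink4-high cells in each library and 5 (0.214%) at least 2-fold lower. Small differences were far more common, as 52.9% of these genes were higher in all 4 libraries and 7.8% lower. When the median r was instead taken within each library, no gene was 2-fold apart in all 4 in either direction.

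Mt3, a metallothionein that binds zinc and copper, had 146, 179, 108 and 127 CPM in the Spink4-high cells and 29.6, 55.5, 7.03 and 20.2 CPM in the other goblet cells. Nxpe2 had 95.8, 99.9, 56.1 and 121 CPM against 15.2, 30.9, 3.21 and 14.3 CPM. For both genes the lowest Spink4-high library exceeded the highest library of the other class, but in DSS 1 the Nxpe2 UMIs came from 4 of 32 cells, 1 of which held 60.5% of them. Meg3, a long noncoding RNA expressed from the maternal allele, had 396, 840, 110 and 364 CPM against 113, 318, 30.5 and 81.7 CPM, so the classes differed within each library while their ranges overlapped. Plet1, a surface protein of epithelial progenitors, had 498, 376, 206 and 308 CPM against 129, 133, 40.4 and 118 CPM. Ffar2, a receptor for short-chain fatty acids, had 175, 107, 111 and 73.7 CPM against 73.3, 52.5, 36.9 and 29.6 CPM. Col8a1, a collagen chain, was the remaining gene of the 6. Just under the 2-fold mark in some libraries lay St6galnac6, a sialyltransferase, with 752, 796, 605 and 606 CPM against 283, 435, 221 and 328 CPM, and Dnajc10, an ER reductase, with 281, 255, 145 and 214 CPM against 127, 129, 78.9 and 110 CPM.

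On the low side, Spink1, a secreted trypsin inhibitor of the same family as Spink4, had 20.1, 6.98, 107 and 94.0 CPM in the Spink4-high cells against 1191, 58.1, 4418 and 2132 CPM in the others. Spink1 and Spink4 thus went opposite ways between the classes. Ang4, an antimicrobial ribonuclease, had 1401, 1122, 312 and 56.1 CPM against 9677, 3612, 12145 and 1552 CPM. Capn9, a calpain protease of the digestive tract, had 13.6, 17.7, 30.0 and 33.3 CPM against 100.7, 71.6, 138 and 89.0 CPM. Scin, an actin-severing protein, and Fer1l6, of the ferlin family of membrane proteins, were the other two. Mptx1, a secreted pentraxin that was just short of the 2-fold mark in DSS 1, had 54710, 40541, 55464 and 5730 CPM against 144590, 91802, 110850 and 22941 CPM. CPM values of a class sum to a fixed total, so abundant transcripts such as this one bear on the ratios of all others. The median log2 ratio over the 3720 genes that reached 50 CPM in at least 1 sum was 0.18.

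**Figure D2:**
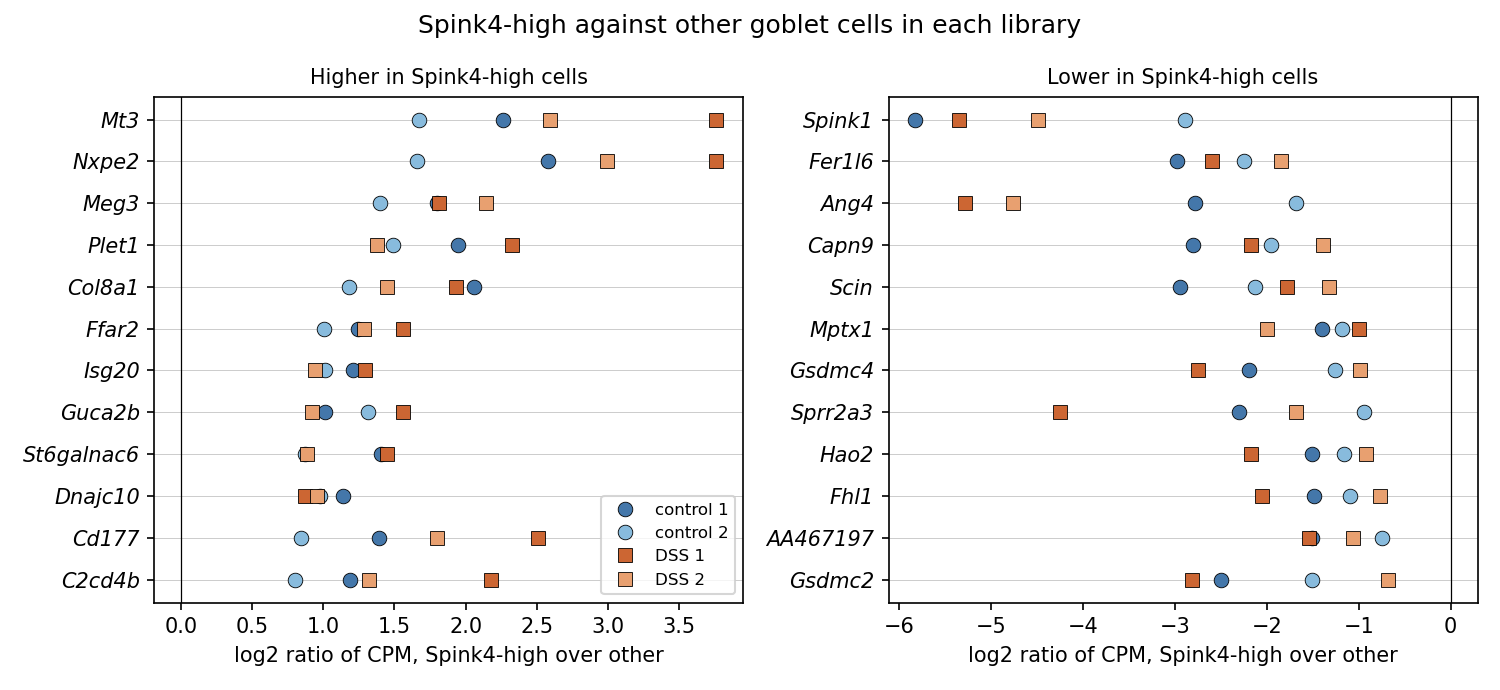
Log2 ratio of CPM in Spink4-high over other goblet cells, 1 point per library, for the 12 highest and 12 lowest genes by the smallest of the 4 library ratios. All points of a panel lie on one side of 0, and Mt3 and Spink1 lead the panels.

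Lists of genes for mucin production differed in how they divided between the classes. Among the 3720 genes above, 1693 were higher in Spink4-high cells in all 4 libraries and 358 lower. With Spdef, a gene of the ratio, left out, 10 goblet transcription factors reached 50 CPM, of which 8 were higher in all 4 libraries and 2 lower. Creb3l1, an ER-bound factor of secretory cells, had 611, 604, 539 and 388 CPM in Spink4-high cells against 290, 415, 193 and 164 CPM in the others, while Klf4, a factor of goblet cell differentiation, had 477, 934, 701 and 1000 CPM against 713, 1175, 1058 and 1430 CPM.

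Of 23 mucin glycosylation genes at that level, 18 were higher in all 4 libraries and 1 lower, against 1693 and 358 of all 3720 genes. B3gnt6, which builds the core 3 O-glycan of Muc2, had 105, 63.9, 40.4 and 86.1 CPM in Spink4-high cells against 34.2, 25.4, 6.42 and 14.7 CPM. Gne, the enzyme at the start of sialic acid synthesis, had 415, 495, 352 and 286 CPM against 235, 351, 181 and 162 CPM. Summed over the list, glycosylation genes held 5512, 5199, 4924 and 4886 CPM against 3905, 4135, 3557 and 3394 CPM, with no overlap between the classes.

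The counts in this paragraph stand beside 1693 of all 3720 genes that were higher in all 4 libraries and 358 that were lower. With Agr2, a gene of the ratio, left out, 27 of 46 ER folding genes were higher in all 4 libraries and 3 lower. Genes of granules and secretion were divided, with 7 of 15 higher in all 4 and 6 lower, and of 16 mucus and secreted products outside the rule 2 were higher and 6 lower. Kdelr3, a receptor that returns ER proteins from the Golgi, had 102, 94.6, 73.0 and 92.1 CPM against 48.4, 55.5, 37.5 and 43.1 CPM. The list did not move as one, since Hspa5, the ER chaperone BiP, had 665, 1634, 814 and 1327 CPM in Spink4-high cells and 800, 1714, 1098 and 1396 CPM in the others. Of 9 proliferation genes, 6 were higher in all 4 libraries, among them Mki67, a marker of cycling cells, with 67.7, 119, 123 and 66.3 CPM against 38.3, 91.9, 18.8 and 31.7 CPM. Of 37 genes of absorptive colonocytes, 1 was higher in all 4 and 20 were lower.

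Within the Spink4-high cells, no gene passed the test of DSS against control (0 of 12161 genes, 0%) by edgeR's quasi-likelihood test on summed UMIs with Benjamini-Hochberg adjustment, and the smallest adjusted p was 0.128. At an unadjusted p under 0.05 there were 510 genes (4.19%), of which 280 (2.3%) had higher and 230 (1.89%) lower levels in DSS. DESeq2 called 35 genes (0.288%), 25 higher and 10 lower. Both DSS libraries lay above both controls for 1619 genes (13.3%) and below both for 1919 genes (15.8%), and the median log2 fold change over all genes was 0.01, with 51.8% of genes above 0 and 48.2% below. The genes named next had the smallest unadjusted p among those with groups that did not overlap and at least 50 CPM in the higher group. None of these 20 genes passed by edgeR, while DESeq2 called all 10 that were higher and 6 of the 10 that were lower in DSS.

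Several genes known to be induced by interferon were among those with higher levels in DSS. AW112010, an interferon-inducible RNA, had 45.3 and 39.4 CPM in control and 224 and 332 CPM in DSS (log2 fold change 2.73, SE 0.30, edgeR adjusted p = 0.128). Ly6a, the surface protein Sca-1, had 36.5 and 55 CPM in control and 213 and 360 CPM in DSS (2.69, SE 0.32, adjusted p = 0.128). Psmb8 and Psmb10, catalytic subunits of the immunoproteasome, had 15.7 and 17.2 CPM against 84.8 and 66.3 CPM, and 62.9 and 61.1 CPM against 151 and 158 CPM. In these 4 genes both DSS libraries were above both controls, as the rule for naming required. Ifi27l2a had 11.1 and 19.2 CPM in control and 49.5 and 66.3 CPM in DSS, and its close copy Ifi27l2b 75.9 and 72.4 CPM and 196 and 231 CPM. Reads of such near-identical genes may be shared between them. Hsd11b2, the enzyme that inactivates corticosterone, had 81.4 and 63.9 CPM in control and 623 and 302 CPM in DSS (2.71, SE 0.46, adjusted p = 0.251). Clec2h, a C-type lectin, had 60.7 and 70.7 CPM against 257 and 160 CPM, and Spink1 20.1 and 6.98 CPM against 107 and 94.0 CPM. The immunoglobulin gene Iglc2 also met the rule, with 2.02 and 17.5 CPM against 200 and 794 CPM, but 1 cell held 95.4% of its UMIs in DSS 2.

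**Figure D3:**
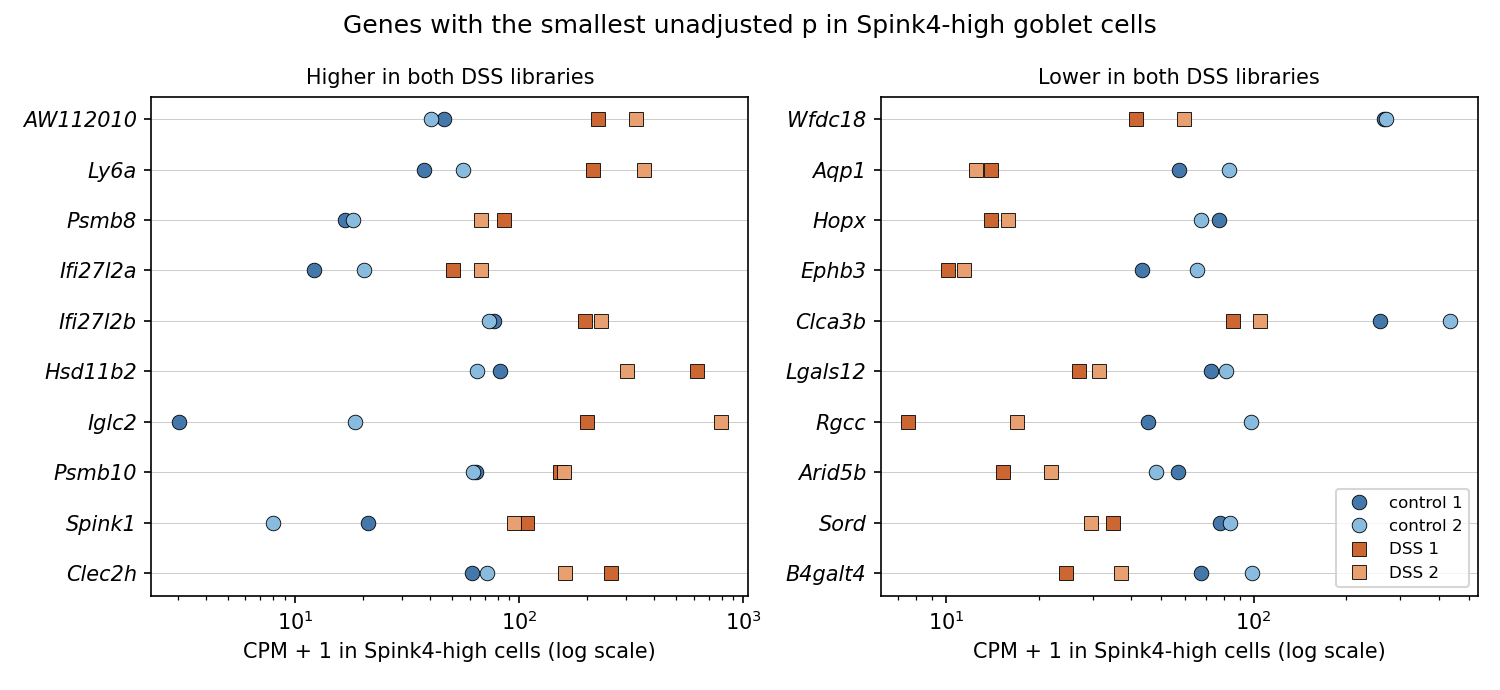
CPM + 1 on a log axis in the Spink4-high cells of each library for the 10 genes with the smallest unadjusted p in each direction, chosen among genes with groups that do not overlap. Control (circles) and DSS (squares) are apart by that choice, and no gene passed the adjusted threshold, with 0.128 as the smallest adjusted p.

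Summed levels of 2 lists of interferon genes were higher in both DSS libraries than in both controls. Of 39 tested interferon gamma response and antigen presentation genes, 38 had a positive log2 fold change and 29 lay higher in both DSS libraries. Their median was 1.25. Of 32 type I interferon genes, 28 were positive and 18 higher in both DSS libraries, with a median of 0.77. Over all genes 51.8% were positive, 13.3% were higher in both DSS libraries and the median was 0.01. No gene of either list passed the edgeR test. Tap1, a peptide transporter for MHC class I, had 6.35, 5.96, 19.6 and 28.9 CPM. Summed levels were 2104, 2438, 3633 and 3363 CPM for the gamma and antigen presentation list and 485, 573, 767 and 952 CPM for type I. In the other goblet cells the medians were 1.26 for the gamma and antigen presentation list and 1.24 for type I. The first was like that of the Spink4-high cells and the second was higher. In the test of a difference in response between the classes, 0 genes of either list passed.

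In DSS 1 much of this signal came from a pair of cells. They were the 2 of 32 cells with the most UMIs of both lists together. A high share of those UMIs was thus built into that choice. The pair held 7.42% of the Spink4-high UMIs there, 33.1% of the gamma and antigen presentation UMIs and 26.7% of the type I UMIs. They had 34628 and 22244 UMIs in all, 469 and 382 of them Muc2. Among immune markers, they held 99 of the 114 Lyz2 UMIs of the class in DSS 1, 14 of 20 for Fcer1g and 4 of 5 for Itgam. They held 0 of 7 for C1qa, 90 of 1279 for Igha and 11.7% of the UMIs of the whole immune marker list. The part of immune RNA in the interferon UMIs of these cells was not tested. Without them Iigp1, an interferon-inducible GTPase, went from 115 to 15.5 CPM in DSS 1, Gbp2, a guanylate-binding protein, from 35.2 to 8.45 CPM, AW112010 from 224 to 118 CPM and Ly6a from 213 to 120 CPM. Psmb8 went from 84.8 to 46.5 CPM, Psmb10 from 151 to 124 CPM and Ifi27l2a from 49.5 to 28.2 CPM, each still above both controls. Both DSS libraries were then higher for 21 of 39 gamma and antigen presentation genes (53.8%) and 9 of 32 type I genes (28.1%), against 12.5% of all genes. The median level of the gamma and antigen presentation list per cell was 1980, 2159, 2160 and 2928 CPM. For that list the typical Spink4-high cell of DSS 1 was thus at the level of control 2. For the type I list the median per cell was 441, 505, 555 and 790 CPM, with DSS 1 above both controls. This look at 2 cells was chosen after the data were seen, and no cells were left out of the other libraries.

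Markers of immune cells summed to 225, 4514, 3770 and 7939 CPM in the Spink4-high cells, so that control 2 exceeded DSS 1. The median per cell ran in another order, at 197, 1726, 3477 and 632 CPM, and was highest in DSS 1. Most of the DSS 1 sum was immunoglobulin RNA, with Igha at 1668 CPM and Igkc at 1565 CPM. Of 20 tested markers 10 were higher in both DSS libraries, against 13.3% of all genes, with a median log2 fold change of 1.60. Ptprc itself had 2.31, 4.65, 13.0 and 8.80 CPM, Cd3e of T cells 0, 0.582, 0 and 0.275 CPM and Cd79a of B cells 0.289, 2.47, 6.52 and 3.58 CPM. The part of immune RNA in the interferon result was not tested. Stromal markers summed to 367, 729, 608 and 1088 CPM, enteroendocrine markers to 41.2, 405, 11.7 and 185 CPM and tuft cell markers to 29.0, 21.8, 18.3 and 48.7 CPM.

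Promoter sequences were searched for GAAA, any 2 bases and GAAA, the core of the interferon-stimulated response element, on either strand in the 250 bases before the gene start. It was present in 821 of 27025 RefSeq promoters (3.04%). Of the 47 genes of both interferon lists that were higher in both DSS libraries, 33 had a promoter entry and 17 of these held the motif. Both lists were made of genes known to respond to interferon, and list genes that were not higher in both DSS libraries were not counted. The 17 genes with the motif thus describe the lists and say nothing on DSS. A match of letters is a description and not a measured binding site. The 120 bases before the start of 4 such genes are shown because their levels in DSS are given beside them, with the motif in capitals (overlapping matches joined), 5′ to 3′ on the strand of the gene, from RefSeq on GRCm38.p6. Isg15, a ubiquitin-like interferon-induced protein, is at chr4:156200819-156200938 on the minus strand and Igtp, an immunity-related GTPase, at chr11:58199436-58199555 on the plus strand. Gbp7, a guanylate-binding protein, is at chr3:142530216-142530335 on the plus strand and Trim30a, of the tripartite motif family, at chr7:104465194-104465313 on the minus strand.
Isg15: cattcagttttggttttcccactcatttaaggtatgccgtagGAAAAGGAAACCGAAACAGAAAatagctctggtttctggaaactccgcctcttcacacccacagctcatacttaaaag
Igtp: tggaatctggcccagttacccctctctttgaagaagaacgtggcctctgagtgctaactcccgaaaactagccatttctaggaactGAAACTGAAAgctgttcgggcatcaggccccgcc
Gbp7: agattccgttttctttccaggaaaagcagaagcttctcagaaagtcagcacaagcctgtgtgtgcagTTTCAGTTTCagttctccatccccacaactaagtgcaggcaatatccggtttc
Trim30a: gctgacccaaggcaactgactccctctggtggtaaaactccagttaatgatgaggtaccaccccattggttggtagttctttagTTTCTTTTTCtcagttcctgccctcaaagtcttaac

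Isg15 had 2.02, 3.06, 15.6 and 13.2 CPM in the Spink4-high cells, and Igtp had 4.26, 2.62, 17.0 and 16.5 CPM. Gbp7 had 6.20, 3.78, 18.3 and 12.9 CPM and Trim30a 3.39, 2.47, 9.13 and 6.87 CPM. All 4 genes were low, and each was chosen among genes for which both DSS libraries exceeded both controls. The 2 cells of DSS 1 named above were picked for their UMIs of the interferon lists. Without them the level in DSS 1 was 5.63 CPM for Isg15, 1.41 CPM for Igtp, 7.04 CPM for Gbp7 and 7.04 CPM for Trim30a. Igtp there then lay below both controls.

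Genes of the crypt base and of Wnt signalling, which keeps intestinal stem cells dividing, had lower levels in both DSS libraries. Of 18 tested stem cell and Wnt genes, 16 were lower in both DSS libraries than in both controls, against 15.8% of all genes, and 13 had an unadjusted p under 0.05, against 1.89% in that direction over all genes. The list median was a log2 fold change of -1.45, and none passed by edgeR. Axin2, a direct target of Wnt signalling, had 22.7, 34.0, 2.61 and 1.10 CPM (log2 fold change -4.30, SE 0.48, unadjusted p = 3.5e-05), and DESeq2 gave it an adjusted p of 0.00012. Lgr5, the stem cell receptor for R-spondins, had 6.42, 12.2, 1.30 and 0.275 CPM, and Ascl2, a stem cell transcription factor, 9.02, 18.3, 2.61 and 0.275 CPM. These low levels rest on very few counts, as DSS 1 held 2 UMIs of Axin2, 1 of Lgr5 and 2 of Ascl2. Sox9, a transcription factor of the lower crypt, had 332, 396, 171 and 177 CPM (-1.03, SE 0.26). The exceptions were Myc, with 16, 20.8, 7.82 and 31.9 CPM, and Prom1, with 58.2, 100, 39.1 and 137 CPM, whose groups overlapped.

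The summed level of the list was 1270 and 1508 CPM in control and 715 and 760 CPM in DSS, and the median per cell was 1141, 1434, 609 and 732 CPM. Without the 2 cells of DSS 1 the count of genes lower in both DSS libraries was again 16 of 18, against 16.1% of all genes. The other goblet cells had a median of -1.37 for the list, and no gene of it passed the test of a difference in response. Of the 16 genes, 11 had a promoter entry and 0 of these held CTTTGAA or CTTTGAT, the TCF/LEF element, which 2073 of 27025 promoters (7.67%) held within 250 bases before the start. That says only that these letters are not in this window.

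Other genes low in DSS included Wfdc18, a small secreted protein of the whey acidic protein family, at 265 and 268 CPM in control and 40.4 and 58.3 CPM in DSS (log2 fold change -2.39, SE 0.28, edgeR adjusted p = 0.128). It lies on chromosome 11 from 83709015 to 83711348 (GRCm38). Aqp1, a water channel, had 56.3 and 82.0 CPM against 13.0 and 11.5 CPM (-2.49, SE 0.30, adjusted p = 0.128), and Hopx, a homeodomain protein of crypt cells, 76.4 and 66.6 CPM against 13.0 and 14.8 CPM. Ephb3, a Wnt-dependent receptor that positions cells along the crypt, had 42.3 and 64.6 CPM against 9.13 and 10.4 CPM. Clca3b, a chloride channel accessory protein related to Clca1, had 256 and 435 CPM against 84.8 and 104 CPM. For each of these 5 genes both DSS libraries were under both controls, as the rule for naming required. Lgals12, a galectin, had 71.6 and 80.6 CPM against 26.1 and 30.5 CPM, and Sord, sorbitol dehydrogenase, 76.7 and 82.9 CPM against 33.9 and 28.6 CPM. Rgcc, a cell cycle regulator, Arid5b, a chromatin protein, and B4galt4, a galactosyltransferase, completed the 10.

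Lists of the secretory programme had medians near 0. Of 16 tested genes of goblet fate (transcription factors and the Notch ligands Dll1 and Dll4), 8 had a positive and 8 a negative log2 fold change, with a median of 0.00. Xbp1, a factor of the unfolded protein response, had 322, 421, 387 and 404 CPM, and Atoh1, which commits cells to the secretory lineage, 243, 167, 276 and 125 CPM. Both overlapped between the groups. Of 26 mucin glycosylation genes, 9 were positive and 17 negative, with a median of -0.06. Of 52 ER folding genes, 41 were negative, against 48.2% of all genes, with a median of -0.16. In both DSS libraries 14 were lower, against 15.8% of all genes, and none higher, against 13.3%.

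Secreted products went different ways. Retnlb, an antibacterial resistin-like protein, had 7120, 6087, 3901 and 3747 CPM (-0.76, SE 0.42), and Muc4, a membrane mucin, 354, 383, 194 and 206 CPM, each lower in both DSS libraries. Dmbt1, a scavenger receptor protein of mucosal defence, had 248, 267, 430 and 1170 CPM, higher in both. Reg3g, a C-type lectin that kills Gram-positive bacteria, had 2.02, 11.2, 26.1 and 51.7 CPM. Its relative Reg3b had 0.216, 29.8, 189 and 594 CPM, but 1 cell held 97.9% of its UMIs in DSS 1. Fcgbp, a mucus protein of the goblet gate, had 1305, 1269, 1318 and 241 CPM, with DSS 2 apart from the other 3 libraries, as it was for Clca1 at 1320, 1349, 1445 and 246 CPM and for Mptx1. For proliferation genes the median log2 fold change was 0.09 in Spink4-high and -1.07 in the other goblet cells, and 0 of 38 passed the test of that difference. The 2 cells of DSS 1 described above held 26.9% of the proliferation UMIs there. Without them Mki67 went from 123 to 87.3 CPM in DSS 1. Of 38 proliferation genes 8 were higher in both DSS libraries, against 13.3% of all genes, and 5 without the 2 cells, against 12.5%.

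Further lists stayed near or moderately above all genes. The median log2 fold change was 0.40 for 31 genes of NF-kB and cytokine response, of which 5 were higher in both DSS libraries. It was 0.53 for 22 genes of regenerative and fetal epithelium, of which 6 were. It was 0.24 for 42 colonocyte genes, of which 4 were, and 0.16 for 25 cholesterol genes. Of all genes 13.3% were higher in both DSS libraries and 15.8% lower. Of 24 immediate early genes, which also respond to tissue dissociation, none was higher or lower in both DSS libraries.

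**Figure D4:**
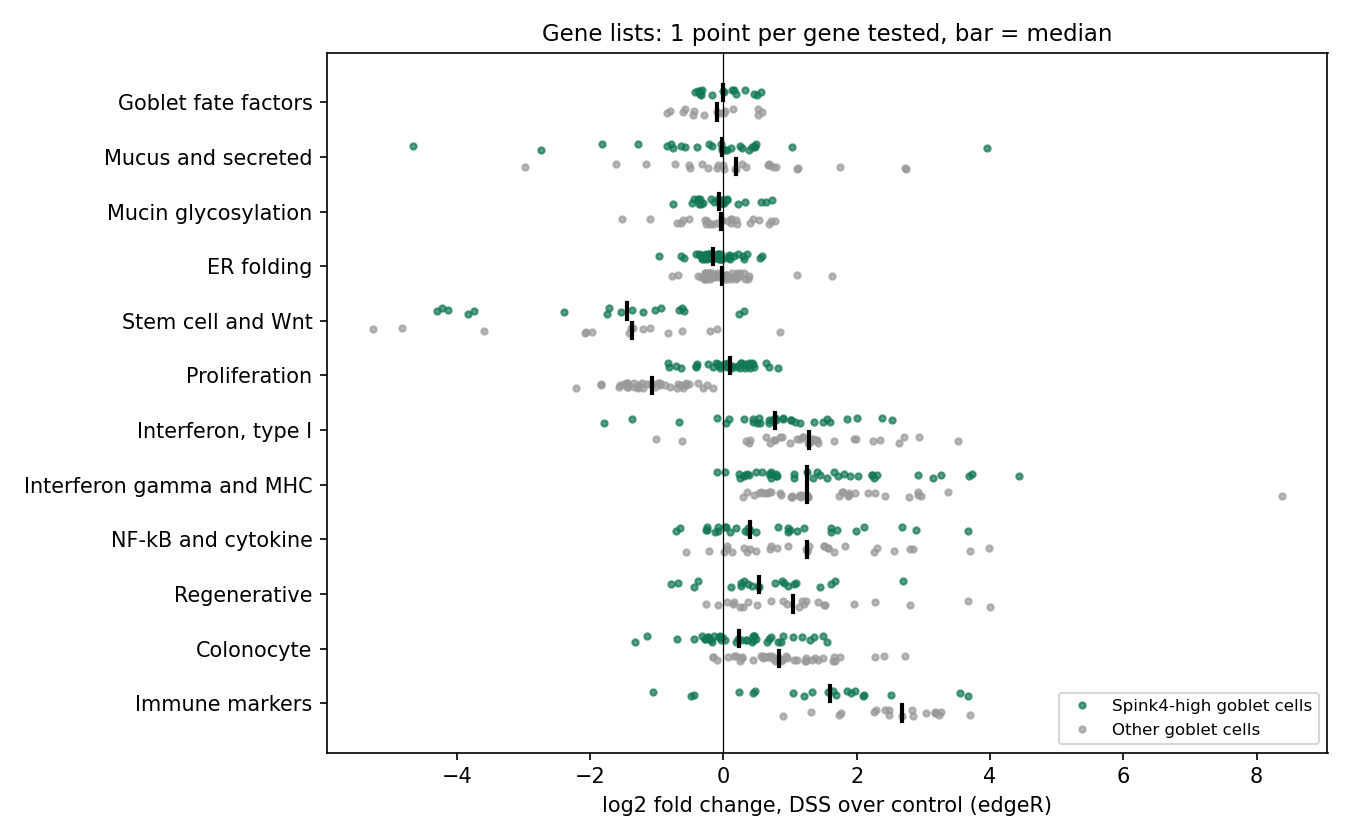
Log2 fold change, DSS over control, of each tested gene of 12 lists in Spink4-high (green) and other (grey) goblet cells, with black bars at the medians. Stem cell and Wnt genes lie mostly below 0 (median -1.45 in Spink4-high cells) and interferon genes mostly above it (1.25 and 0.77), while proliferation genes centre on 0.09 in Spink4-high and -1.07 in other goblet cells.

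A model with the library as a block tested directly whether the DSS response differed between Spink4-high and other goblet cells. Of 13093 genes, 14 (0.107%) passed at an edgeR adjusted p under 0.05, with 3 higher and 11 lower relative responses in Spink4-high cells. Reg4, a C-type lectin of deep crypt secretory cells, had 760, 806, 1102 and 8.25 CPM in the Spink4-high cells and 1576, 1624, 342 and 5.49 CPM in the others. Its response differed by 2.33 on the log2 scale (SE 0.27, adjusted p = 0.0115). Reg4 was lower in Spink4-high than in other goblet cells in both controls and higher in both DSS libraries, although in DSS 2 it was near 0 in both classes. Reg4 lies on chromosome 3 from 98222156 to 98236748 (GRCm38). After thinning, a Reg4 UMI was found in 35.2%, 35.1%, 59.4% and 1.27% of Spink4-high cells.

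Ang4, the antimicrobial ribonuclease, went the other way. It had 1401, 1122, 312 and 56.1 CPM in the Spink4-high cells and 9677, 3612, 12145 and 1552 CPM in the others, a difference in response of -2.88 (SE 0.37, edgeR adjusted p = 0.0193). Both DSS libraries were below both controls in Spink4-high cells, while the groups overlapped in the others. A single cell held 40.2% of the Ang4 UMIs of the Spink4-high cells in DSS 1 and another 37.3% in DSS 2. When the median ratio was taken within each library the difference was -0.08, so the result rests on a threshold shared by all libraries.

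Eps8, a regulator of actin in microvilli, had 71.6, 161, 39.1 and 107 CPM in Spink4-high cells and 42.8, 132, 64.2 and 208 CPM in the others (difference -1.46, SE 0.18, edgeR adjusted p = 0.0135). Lmo7, a LIM domain protein of cell junctions, had 68.8, 165, 40.4 and 195 CPM against 48.8, 160, 81.9 and 405 CPM (-1.37, adjusted p = 0.024). Areg, a ligand of the EGF receptor, had 62.7, 280, 95.2 and 321 CPM against 50.1, 246, 160 and 612 CPM (-1.18, adjusted p = 0.0341). In all 3 genes the Spink4-high cells were the higher class in both controls and the lower class in both DSS libraries. Best2, an ion channel of colonic goblet cells, had 25.4, 11.5, 151 and 15.9 CPM against 65.0, 33.5, 60.2 and 17.6 CPM (2.13, SE 0.33, adjusted p = 0.0484), with DSS 1 alone far above the other libraries. Areg and Best2 each passed under 10 of 14 alternatives. Insl5, Pyy, Gcg, Gal and Chgb, products of enteroendocrine cells, also passed, as did the haemoglobin gene Hbb-bs. Most of their UMIs sat in 1 cell of a library, as with 94.9% of the Insl5 UMIs in the Spink4-high cells of control 2 and 97.2% of those in the other goblet cells of DSS 2.

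**Figure D5:**
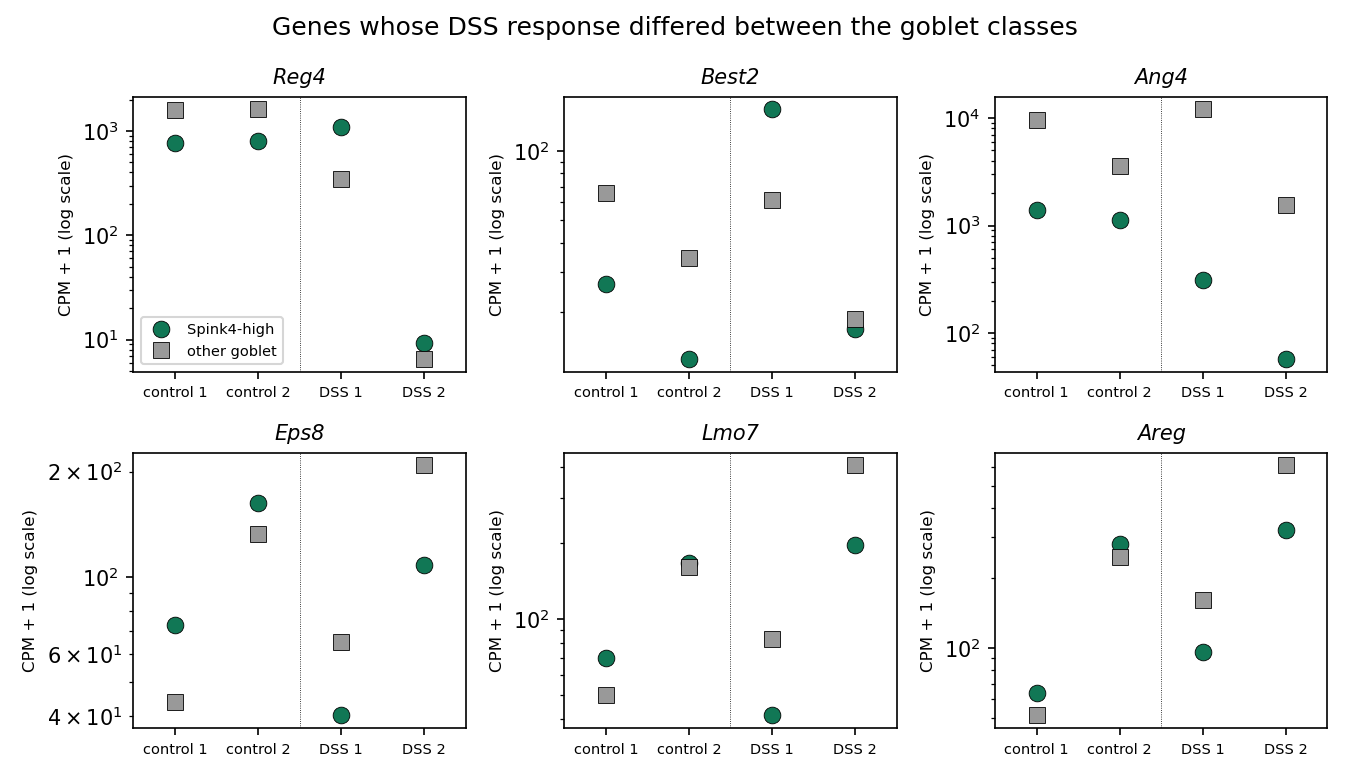
CPM + 1 on a log axis in Spink4-high (circles) and other (squares) goblet cells of each library for 6 of the 14 genes whose DSS response differed between the classes. The order of the classes in control is turned around in both DSS libraries for Reg4, Eps8, Lmo7 and Areg, while Ang4 stays lower in Spink4-high cells in every library by a wider margin in DSS.

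Counts were simulated with these libraries' means and depths and a fixed dispersion that was assumed, not estimated from the data. In them the test of DSS against control recovered 26% of genes changed 2-fold and 92% changed 4-fold among 12205 genes. The test of the difference in response recovered 3% and 55% among 12811 genes. Under that assumed spread a gene that changed 2-fold would often have been missed at this size. Recovery at the spread between these libraries was not tested.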

How the data were processed

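Single cells of mid-colon were measured in 2 control and 2 DSS libraries. The deposited files hold raw UMI counts for 55450 genes per barcode, made by the authors with Cell Ranger 6.1.1 on GRCm38, per the submitters' processing notes. The labels name version 3 capture and version 2 library reagents, and this was not resolved. The cell filters and the ratio rule are given with the cells. For each library the counts of a class of cells were added up, and a gene's CPM is its part of that sum per 1000000 UMIs. DSS against control was tested with edgeR 4.0.16 (R 4.3.3, quasi-likelihood, TMM scaling, low-count filter, Benjamini-Hochberg, threshold 0.05), and the difference in response with library as a block. DESeq2 1.42.0, other filters and left-out libraries were alternatives. Doublets were predicted with Scrublet in scanpy 1.11.5. Shares were compared with an exact permutation test over libraries. For cells with a UMI, cells under 2000 UMIs were left out and the rest thinned. Log2 ratios between classes use CPM + 1. The scripts were tested on simulated counts. Members and gene lists were chosen with earlier results of these data known. Named genes followed these rules: the 10 smallest unadjusted p in each direction for DSS among groups that do not overlap, the 12 most extreme ratios between classes, the interaction genes that passed, and a panel of goblet genes. Names given for single list genes were chosen after their values were seen. Promoters are from RefSeq.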

Additional observations from a re-analysis of the deposited data

Results flagged for a closer look

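The DSS response of 14 genes differed between Spink4-high and other goblet cells in the edgeR test of the difference itself, and each value here is the log2 fold change of DSS over control in Spink4-high cells minus that in the other goblet cells. The difference was 2.33 for Reg4, 2.13 for Best2 and 5.04 for Chgb. It was -2.88 for Ang4, -1.91 for Apoe, -1.46 for Eps8, -1.37 for Lmo7, -1.21 for Ncoa7 and -1.18 for Areg. Among hormone and peptide genes it was -5.79 for Insl5, -4.61 for Pyy, -6.27 for Gal and -4.88 for Gcg, and for the haemoglobin gene Hbb-bs it was -4.48.

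Reg4 and Eps8 passed under all 14 alternatives that were run, Ang4 under 13, Lmo7 under 12, Ncoa7 under 11, and Areg, Best2 and Gal under 10. Insl5, Pyy, Gcg and Apoe passed under 9 of 14, Chgb under 9 of 13 and Hbb-bs under 8 of 14. The enteroendocrine genes rested on single cells. One cell of control 2 held 96.0% of the Pyy and 95.7% of the Gcg UMIs of its Spink4-high class, and 1 cell of DSS 2 held 61.1% of the Chgb UMIs. For Hbb-bs 1 cell held 60.5% of the UMIs in the Spink4-high cells of control 1.

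Apoe, an apolipoprotein also made by macrophages, had 34.1, 63.6, 58.7 and 12.6 CPM in the Spink4-high cells (control 1, control 2, then DSS 1, DSS 2) and 21.2, 28.4, 142 and 18.4 CPM in the others. Ncoa7 had 15.7, 98.2, 9.13 and 138 CPM against 15.2, 91.9, 26.2 and 286 CPM, and its range followed the library more than the treatment.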

How the results depend on the processing

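The count of genes that passed for DSS in Spink4-high cells was 0. It was 35 with DESeq2, 245 with no low-count filter and 189 with the replicate number as a block. Leaving out 1 library gave 0 to 5, with 5 and 3 when control 1 or control 2 was left out and 4 and 0 when DSS 1 or DSS 2 was, where a lone library is assumed to vary like the other group. The other alternatives also gave 0. Same-numbered libraries deviated together with a correlation of 0.34 over 12161 genes, but with 2 pairs and no label that ties the numbers they were not treated as pairs.

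The count of genes that differed in response was 14. It was 310 with no low-count filter, 6 without predicted doublets, 142 with the upper quartile of r, 124 with the median of r within each library, 137 with goblet genes at 5% of UMIs, 35 with cells of at least 2000 UMIs and 8 with cells free of Ptprc, Cd3e and Cd79a UMIs, a setting chosen after seeing the data. It was 34 and 64 when control 1 or control 2 was left out, and 55 and 79 when DSS 1 or DSS 2 was. DESeq2 gave 20, another scaling (RLE) 19 and a 15% mitochondrial limit 16. The cause of these moves was not tested. DSS 1 kept 6 Spink4-high cells under the upper quartile and 13 under the 5% gate.

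Genes at least 2-fold higher or lower in Spink4-high cells in every library were 6 and 5. They were 18 and 10 with the upper quartile, 0 and 0 with the median within each library and 13 and 9 with the 5% gate, and leaving out 1 library gave 6 to 21 and 5 to 14. Without control 2 they were 21 and 14, and without DSS 1 the higher count was 11 and without DSS 2 the lower count was 11. Among the differences in response, directions turned for Gcg, from -5.22 to 1.68 over the left-out libraries (1.68 without DSS 2) and 2.23 with the 5% gate. They also turned for Chgb, from -3.06 (without DSS 2) to 6.33, and for Hbb-bs, from -4.99 to 0.72 (without DSS 1).

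The share of Spink4-high cells was lower in DSS under every alternative run, by -16.4 to -54.2 points of goblet cells and -2.0 to -6.11 points of kept cells when 1 library was left out. The median within each library fixes the share of goblet cells, so it gives no value for it. Only 32 Spink4-high cells in DSS 1, near the ratio threshold, limit every value that rests on that library.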
